A study of Mus musculus with 8 samples.

Results

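Levels of 10 genes of the VEGF, PlGF and angiopoietin system were compared between mouse hearts 1 day after coronary ligation and sham-operated hearts. The members are a list of gene symbols, drawn up with earlier results of these data known, and all 10 were among the 19938 genes measured, each by 1 probe assigned to that gene alone. They comprise the ligands Vegfa, Vegfb, Vegfc, Pgf, Angpt1 and Angpt2, the receptors Flt1, Kdr and Tek, and the co-receptor Nrp1. The platform was the Affymetrix Mouse Gene ST array, and the authors deposited RMA values on a log2 scale, on which a difference of 1 is a doubling.

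There were 2 arrays in each of 4 groups. KO MI hearts came from mice lacking MAFbx, the muscle ubiquitin ligase encoded by Fbxo32, after ligation of the left coronary artery (myocardial infarction, MI). WT MI hearts had the same ligation in wild-type mice. KO sham and WT sham hearts came from the same genotypes after a sham operation. The labels give no day for the sham hearts, so the time after operation may differ from that of the MI hearts. The labels give no strain, age or sex, no deleted part of Fbxo32 and no word on whether the arrays of a group are separate animals. The p-values therefore measure the spread between these arrays, which may be technical. Fbxo32 read 5.14 and 5.46 in KO MI against 8.35 and 8.21 in WT MI, and 4.68 and 5.17 in KO sham against 8.76 and 8.79 in WT sham. It was lower on every KO array than on every WT array, and the labels do not say whether the probe lies in the deleted part. On the second principal component (8.56% of the variance), WT MI replicate 2 and KO sham replicate 1 lay far from their partner arrays. The mean log2 level of 11 cardiomyocyte markers was between 13.08 and 13.35 on the 8 arrays, and that of 23 blood endothelial markers between 8.27 and 8.41.

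VEGF-A acts on blood endothelial cells mainly through Kdr, which carries the mitogenic signal. Flt1 binds VEGF-A tightly but signals weakly and, in a soluble form, traps ligand, while Vegfb and placental growth factor (PlGF, the product of Pgf) bind Flt1 and not Kdr. Nrp1 holds VEGF-A near Kdr, and Vegfc acts chiefly on lymphatic vessels. Tek is the receptor of the angiopoietins: Angpt1, made by perivascular cells, activates it and keeps vessels quiescent, and Angpt2, released by activated endothelium, competes with Angpt1.

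After infarction genes of the system moved in both directions. Of the 10 genes, 2 rose and 3 fell in KO hearts, and 2 rose and 4 fell in WT hearts, at a limma adjusted p under 0.05. Pgf and Angpt2 rose in both genotypes, and Angpt1, Kdr and Tek fell in both, while the fall of Nrp1 passed in WT. Vegfa, Vegfb, Vegfc and Flt1 passed in neither. In whole hearts fewer cells of a type and less RNA per cell cannot be told apart. Over all genes 20.8% changed in KO (10.5% rose, 10.3% fell) and 28.1% in WT (12.3% rose, 15.8% fell). The median log2 fold change of the 10 genes was -0.23 in KO, against 0.01 over all genes, and -0.28 in WT, against 0.04 over all genes. Between genotypes 1 of the 10 passed, Pgf in infarcted hearts, where 0.0702% of all genes passed.

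The promoter stretches of the 4 changed genes that the RefSeq promoter table (GRCm38.p6) holds are shown because Pgf rose while Kdr, Nrp1 and Tek fell. Each run is the 250 bases before the first transcription start listed for the gene, 5′ to 3′ on the gene's strand. Capitals mark the GC box GGGCGG on either strand, the motif bound by Sp1. The windows are chr12:85177314-85177563 (minus strand) for Pgf, chr5:75978456-75978705 (minus strand) for Kdr, chr8:128358823-128359072 (plus strand) for Nrp1 and chr4:94739039-94739288 (plus strand) for Tek.
Pgf: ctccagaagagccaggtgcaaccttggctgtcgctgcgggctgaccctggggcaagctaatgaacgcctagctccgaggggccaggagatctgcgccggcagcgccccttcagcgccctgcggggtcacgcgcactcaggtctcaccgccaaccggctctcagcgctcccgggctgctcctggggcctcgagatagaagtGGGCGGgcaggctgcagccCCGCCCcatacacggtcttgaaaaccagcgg
Kdr: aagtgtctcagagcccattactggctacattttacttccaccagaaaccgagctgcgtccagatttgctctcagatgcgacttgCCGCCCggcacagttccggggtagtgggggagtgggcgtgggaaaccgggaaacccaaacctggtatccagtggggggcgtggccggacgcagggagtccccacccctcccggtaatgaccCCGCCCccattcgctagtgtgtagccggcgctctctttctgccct
Nrp1: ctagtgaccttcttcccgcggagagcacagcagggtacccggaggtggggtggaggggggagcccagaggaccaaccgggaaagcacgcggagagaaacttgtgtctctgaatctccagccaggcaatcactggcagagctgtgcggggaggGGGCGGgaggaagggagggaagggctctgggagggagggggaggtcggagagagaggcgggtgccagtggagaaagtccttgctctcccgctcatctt
Tek: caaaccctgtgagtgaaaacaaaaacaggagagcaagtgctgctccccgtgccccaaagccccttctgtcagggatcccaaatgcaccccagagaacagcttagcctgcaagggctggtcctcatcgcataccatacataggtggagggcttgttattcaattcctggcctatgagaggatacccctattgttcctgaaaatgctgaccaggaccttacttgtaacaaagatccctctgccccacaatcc

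The Pgf window had 2 GC boxes, that of Kdr 2, that of Nrp1 1 and that of Tek 0. The window of the other start listed for Pgf (chr12:85175983-85176232, minus strand), not printed here, had 0. GC content was 68.4% for Pgf, 61.6% for Kdr, 64.4% for Nrp1 and 51.2% for Tek. The table held 8 of the 10 members, of which 7 had a GC box in the window of their first listed start. Of all 32841 windows of the same length, 32.7% had one, and these windows are not limited to first listed starts. The core of the hypoxia response element, ACGTG on either strand, was in none of those 8 windows, against 16.6% of all windows. It occurred once in the window of the other start listed for Vegfa (chr17:46025164-46025413, minus strand), which lies downstream of the first. The letters TATAAA on either strand, in 12.4% of all windows, occurred for 1 member, Flt1. The 4 printed windows hold neither ACGTG nor TATAAA, so no motif overlaps another in them. A match is not a shown binding site, and the labels do not say which start is used in the heart. Angpt1 and Angpt2 have no entry in the table.

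Pgf, the PlGF gene, had by far the widest range of the 10 members, 4.38 on the log2 scale over the 8 arrays. Its log2 level was 8.27 and 8.51 in KO MI against 5.65 and 5.48 in KO sham, and 9.59 and 9.56 in WT MI against 5.53 and 5.21 in WT sham. All 4 MI arrays lay above all 4 sham arrays, and both WT MI arrays lay above both KO MI arrays. Pgf rose 7.07-fold in KO (log2 fold change 2.82, SE 0.15, adjusted p = 4.19e-06) and 18.4-fold in WT (log2 fold change 4.20, SE 0.15, adjusted p = 3.8e-07). The 95% intervals of the fold changes were 5.61 to 8.91 in KO and 14.6 to 23.2 in WT. Among all genes Pgf stood at rank 69 by size of rise in KO and at rank 29 in WT. Its sham levels lay near the median of gene means (5.80) and above their 10th percentile (3.05).

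Angpt2, whose product is stored in endothelial cells and released on activation, read 7.11 and 6.71 in KO MI against 5.61 and 5.70 in KO sham. In WT it read 7.50 and 6.92 in MI against 6.20 and 6.39 in sham. The infarcted and sham arrays did not overlap in either genotype, and the gap was wider in KO, where the sham level was lower. Angpt2 rose 2.38-fold in KO (log2 fold change 1.25, SE 0.20, adjusted p = 0.00218) and 1.88-fold in WT (log2 fold change 0.91, SE 0.20, adjusted p = 0.00785). The WT call was lost without WT sham replicate 1 (adjusted p = 0.0605) or without WT MI replicate 1 (adjusted p = 0.0504), over a range of 0.0038 to 0.0605 across alternatives.

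Angpt1, the activating ligand of Tek, moved the other way. It read 6.70 and 6.53 in KO MI against 7.42 and 7.68 in KO sham, and 7.39 and 7.25 in WT MI against 7.84 and 8.02 in WT sham. The 4 groups did not overlap with one another: KO MI was lowest, then WT MI, then KO sham, and WT sham was highest. Angpt1 fell 1.91-fold in KO (log2 fold change -0.94, SE 0.14, adjusted p = 0.00156) and 1.53-fold in WT (log2 fold change -0.61, SE 0.14, adjusted p = 0.00996). The WT call was lost without WT sham replicate 2 (adjusted p = 0.0933) or without WT MI replicate 2 (adjusted p = 0.065), over a range of 0.00553 to 0.0933.

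The opposite moves of the angiopoietins shifted their balance towards Angpt2. The log2 difference of Angpt2 over Angpt1, set to 0 at the mean of WT sham, was 2.05 and 1.81 in KO MI and 1.74 and 1.31 in WT MI. It was -0.17 and -0.33 in KO sham and -0.01 and 0.01 in WT sham. Every MI array lay above every sham array, and no test was run on this difference.

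**Figure D1:**
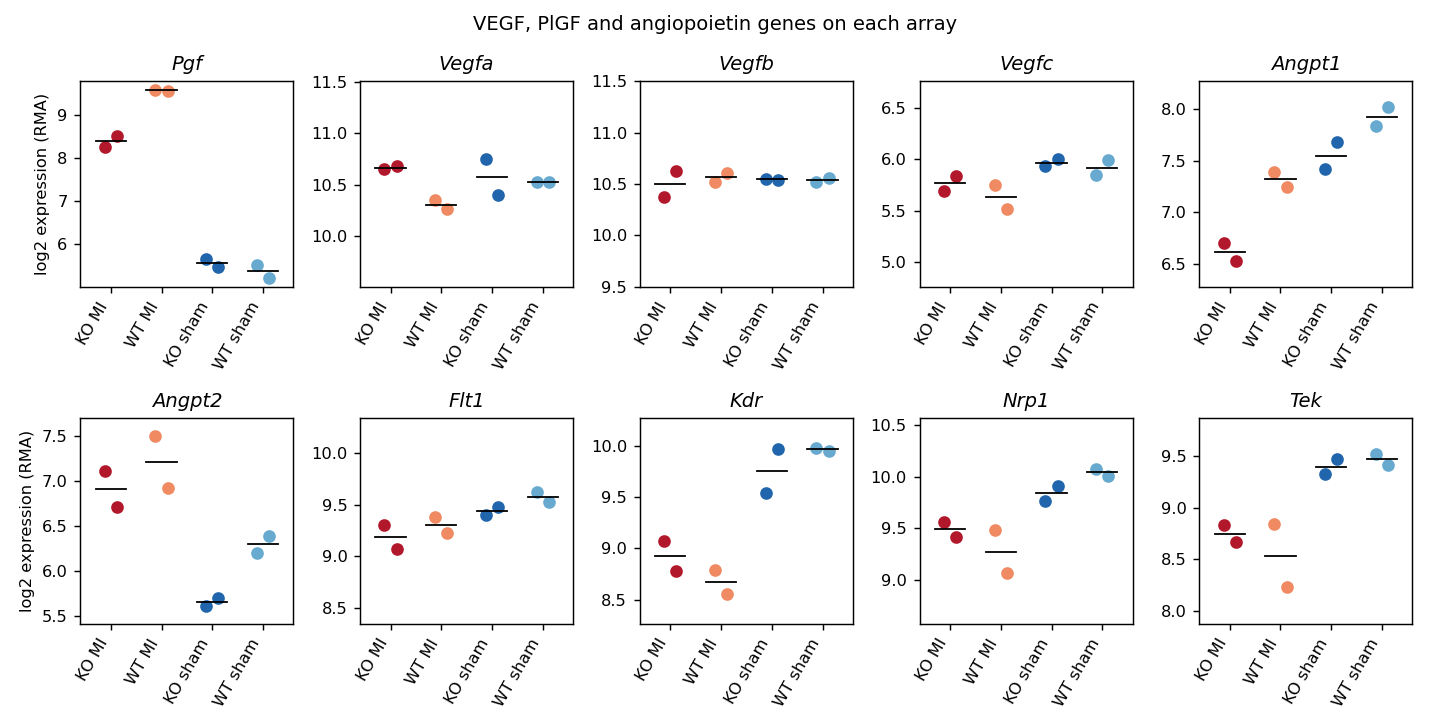
Log2 expression of the 10 genes on each array, in a panel per gene with KO MI, WT MI, KO sham and WT sham from left to right. Points are arrays, lines are group means (n = 2 each), and each panel has its own log2 axis. Pgf and Angpt2 sit higher in the MI groups, Angpt1, Kdr, Nrp1 and Tek lower, and the WT MI points of Pgf (9.59 and 9.56) lie above the KO MI points (8.27 and 8.51).

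Kdr, the main signalling receptor of VEGF-A, had the largest fall of the 4 receptor genes in WT. Its level was 9.07 and 8.78 in KO MI against 9.54 and 9.97 in KO sham, and 8.79 and 8.56 in WT MI against 9.98 and 9.95 in WT sham. Infarcted and sham arrays did not overlap, and KO sham replicate 1 was the lowest sham array. Kdr fell 1.78-fold in KO (log2 fold change -0.83, SE 0.17, adjusted p = 0.00737) and 2.44-fold in WT (log2 fold change -1.28, SE 0.17, adjusted p = 0.000458). Without KO MI replicate 2 the KO call was lost (adjusted p = 0.0734, range over alternatives 0.00247 to 0.0734).

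Tek, the angiopoietin receptor, read 8.83 and 8.67 in KO MI against 9.33 and 9.47 in KO sham, and 8.84 and 8.23 in WT MI against 9.52 and 9.42 in WT sham. The lowest array was WT MI replicate 2, and no MI array reached the sham range. Tek fell 1.57-fold in KO (log2 fold change -0.65, SE 0.19, adjusted p = 0.0349) and 1.91-fold in WT (log2 fold change -0.93, SE 0.19, adjusted p = 0.00444). The KO call was lost under 8 of 20 alternatives, among them without any of the 4 WT sham and KO sham arrays and without either KO MI array (range 0.00878 to 0.192). The WT call was kept throughout the same alternatives except a 2-fold minimum.

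Nrp1, the co-receptor that also binds class 3 semaphorins, read 9.56 and 9.42 in KO MI against 9.77 and 9.91 in KO sham, and 9.48 and 9.07 in WT MI against 10.08 and 10.01 in WT sham. All MI arrays lay below all sham arrays, with WT MI replicate 2 lowest, while KO MI and WT MI overlapped. Nrp1 fell 1.70-fold in WT (log2 fold change -0.77, SE 0.15, adjusted p = 0.00451). In KO its log2 fold change was -0.35 (SE 0.15, adjusted p = 0.152). The difference between those responses was 0.42 (SE 0.22, 95% interval -0.07 to 0.91, adjusted p = 0.653), so the response of Nrp1 was not shown to differ by genotype.

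Flt1, the receptor that PlGF and VEGF-B share, read 9.30 and 9.07 in KO MI against 9.40 and 9.48 in KO sham, and 9.38 and 9.23 in WT MI against 9.62 and 9.53 in WT sham. Its infarcted arrays were the lower ones in each genotype, by a small margin. The log2 fold change was -0.26 in KO (95% interval -0.55 to 0.04, adjusted p = 0.224) and -0.27 in WT (95% interval -0.57 to 0.02, adjusted p = 0.16), neither past the threshold. The labels do not say which Flt1 isoforms the probe covers.

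Vegfa, the principal angiogenic ligand, read 10.65 and 10.68 in KO MI against 10.75 and 10.40 in KO sham, and 10.35 and 10.26 in WT MI against 10.52 and 10.52 in WT sham. The KO groups overlapped, while both WT MI arrays lay below both WT sham arrays. Its log2 fold change was 0.09 in KO (95% interval -0.23 to 0.40, adjusted p = 0.744) and -0.21 in WT (95% interval -0.53 to 0.10, adjusted p = 0.294). Both intervals leave out a 2-fold rise.

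Vegfb, a ligand of Flt1 that is abundant in heart muscle, varied least of the 10 genes, over 0.26 on the log2 scale. It read 10.37 and 10.63 in KO MI and 10.52 and 10.61 in WT MI, against 10.55 and 10.54 in KO sham and 10.52 and 10.56 in WT sham. Vegfc read 5.69 and 5.84 in KO MI and 5.75 and 5.52 in WT MI, against 5.93 and 6.0 in KO sham and 5.85 and 5.99 in WT sham. Its infarcted arrays all lay below the sham arrays, with log2 fold changes of -0.20 in KO (adjusted p = 0.361) and -0.28 in WT (adjusted p = 0.155).

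**Figure D2:**
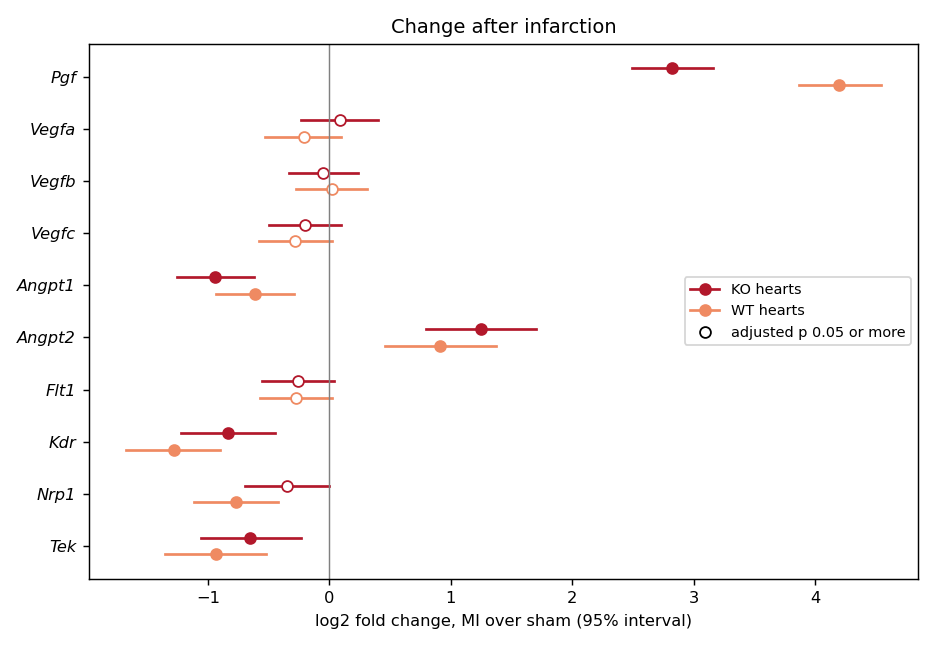
Log2 fold change of each gene after infarction (x axis, MI over sham), with KO hearts above WT hearts in each row. Points are limma estimates, lines their 95% intervals, and open points did not pass an adjusted p of 0.05; Pgf stands at 2.82 in KO and 4.20 in WT, and Kdr at -0.83 and -1.28.

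The next comparison asked whether loss of MAFbx altered these genes in infarcted hearts. Pgf was 2.28-fold lower in KO MI than in WT MI (log2 fold change -1.19, SE 0.15, 95% interval -1.52 to -0.85, adjusted p = 0.0346). It was 1 of 14 genes that differed, 0.0702% of those tested, and had the rank 9 by p. The size of the difference was between -1.31 and -1.07 under all 20 alternatives. The call was lost under 11 of them, all 8 that leave out 1 array included (adjusted p between 0.0134 and 0.346 over the alternatives). The rise of Pgf after infarction was smaller in KO by 1.38 on the log2 scale (interaction -1.38, SE 0.21), which did not pass (adjusted p = 0.171, range over alternatives 0.0843 to 0.811).

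The mean of neutrophil markers, like Pgf, was lower on both KO MI arrays than on both WT MI arrays. The mean log2 level of 8 such markers was 6.89 and 7.21 in KO MI and 7.82 and 8.74 in WT MI, against 4.04 and 3.78 in KO sham and 3.85 and 3.93 in WT sham. All 8 had a lower group mean in KO MI than in WT MI, with a median log2 fold change of -1.20 against 0.00 over all genes. By limma 0 of 8 passed (7 at an unadjusted p under 0.05, as were 11.7% of all genes). The markers with the smallest p after infarction in WT were S100a8 (log2 fold change 4.97 in KO and 6.20 in WT), Cxcr2 (5.03 in KO and 6.18 in WT) and S100a9 (4.33 in KO and 5.0 in WT). The 10 macrophage markers averaged 8.17 and 8.05 in KO MI and 8.40 and 7.96 in WT MI, which overlapped. All 8 fibroblast markers were higher in KO MI than in WT MI (median 0.46, 0 passing, 4 at an unadjusted p under 0.05). The part of these cells in the Pgf difference was not tested.

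The other members did not pass between genotypes in infarcted hearts. By limma Vegfa, Pgf and Angpt1 had an unadjusted p under 0.05 there, as had 11.7% of all genes. Angpt1 came nearest, 1.63-fold lower in KO MI than in WT MI (log2 fold change -0.71, SE 0.14, 95% interval -1.03 to -0.39, adjusted p = 0.134). Its adjusted p ranged from 0.0556 to 0.493 over the alternatives and passed in 0 of them. Vegfa was higher on both KO MI arrays than on both WT MI arrays, with a log2 fold change of 0.36 (95% interval 0.04 to 0.67, adjusted p = 0.372). The log2 fold changes of the other 7 genes lay between -0.30 for Angpt2 and 0.24 for Kdr.

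In sham hearts 0 of the 10 genes differed between KO and WT by limma, against 0.0301% of all genes, and 2 members had an unadjusted p under 0.05, as had 5.10% of all genes. Those were Angpt2, which was 1.55-fold lower in KO sham than in WT sham with no overlap (log2 fold change -0.63, SE 0.20, adjusted p = 0.762), and Angpt1 (log2 fold change -0.38, SE 0.14, adjusted p = 0.881). The Pgf arrays of the genotypes overlapped, with a log2 fold change of 0.20 (95% interval -0.14 to 0.53, adjusted p = 1).

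Averaged over sham and MI, 0 of the 10 genes passed, against 0.100% of all genes, and Pgf, Angpt1 and Angpt2 had an unadjusted p under 0.05, as had 8.40% of all genes. The averaged log2 fold change of KO over WT was -0.54 for Angpt1 (SE 0.10, adjusted p = 0.13), -0.50 for Pgf (SE 0.11, adjusted p = 0.182) and -0.47 for Angpt2 (SE 0.14, adjusted p = 0.407). For the difference of the infarction responses, 0% of all genes and 0 members passed, with 1634 genes (8.20%) and 1 member, Pgf, at an unadjusted p under 0.05. An intensity trend called 4 genes there and cyclic loess 1, none of them a member.

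**Figure D3:**
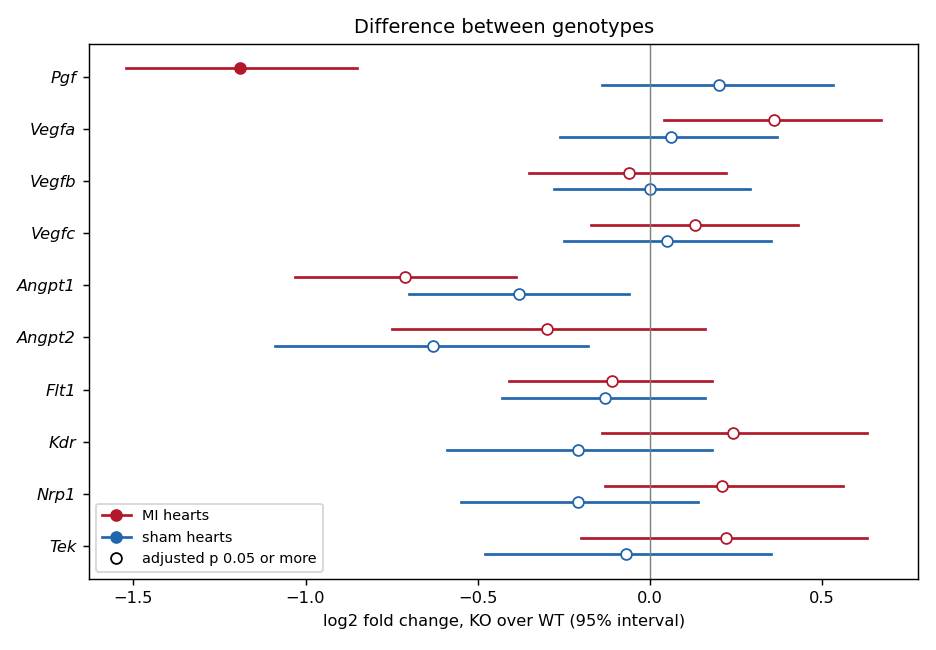
Log2 fold change of KO over WT (x axis) for each gene, with infarcted hearts above sham hearts in each row. Points are limma estimates with 95% intervals and open points did not pass; the filled point is Pgf in infarcted hearts at -1.19, and the intervals of Angpt1 lie below 0 in both conditions.

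The falls of Kdr, Tek and Nrp1 were set beside markers of the cells that carry these receptors. Of 23 blood endothelial markers 1 rose and 3 fell in KO, and 4 rose and 3 fell in WT. Over all genes 10.5% rose and 10.3% fell in KO, and 12.3% rose and 15.8% fell in WT. The same shares stand beside the counts of the marker and pathway lists that follow. The median log2 fold change of the blood endothelial markers was -0.08 in KO and 0.06 in WT. Meox2, an endothelial transcription factor gene, fell by 0.94 in KO and by 1.35 in WT on the log2 scale, and Clec14a, an endothelial lectin gene, fell by 0.95 in KO and by 0.87 in WT. Plvap, which forms the diaphragms of fenestrated endothelium, rose by 1.21 in both. Pecam1, Emcn and Cdh5 (from the receptor list), singled out after their values were seen, did not pass, while other endothelial markers did, as counted above. The log2 fold change of Pecam1 was 0.0 in KO and 0.06 in WT. That of Emcn was -0.16 in KO and 0.07 in WT, and that of Cdh5 -0.19 in KO and -0.01 in WT. Whether the receptors' falls differ from the list was not tested.

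Of 9 pericyte markers, from the perivascular cells that make Angpt1, 1 rose and 3 fell in KO and 1 rose and 6 fell in WT, where 3 fell without either WT MI array. Abcc9 fell by 0.94 in KO and by 1.30 in WT, and Rgs5 by 0.91 in KO and by 0.85 in WT. The mean log2 level of the list was 8.28 and 8.04 in KO MI against 8.35 and 8.44 in KO sham, and 8.02 and 7.96 in WT MI against 8.39 and 8.44 in WT sham. Its part in the fall of Angpt1 was not tested. Between genotypes in infarcted hearts all 9 pericyte markers had a higher group mean in KO, with a median log2 fold change of 0.14. By limma 0 passed, with 1 at an unadjusted p under 0.05, as had 11.7% of all genes.

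Of 5 lymphatic endothelial markers 1 rose and 1 fell in KO, and 1 rose and 3 fell in WT. Prox1, which specifies lymphatic endothelium and is also expressed in heart muscle, fell by 1.07 in KO and by 1.94 in WT, while Pdpn rose by 3.73 in KO and by 3.12 in WT. Fibroblast markers rose in 1 and fell in 0 of 8 in KO, and rose in 0 and fell in 3 of 8 in WT. Cardiomyocyte markers fell in 1 of 11 in KO and in 4 of 11 in WT. Mesothelial markers rose in 1 of 5 in KO and changed in 0 of 5 in WT.

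**Figure D4:**
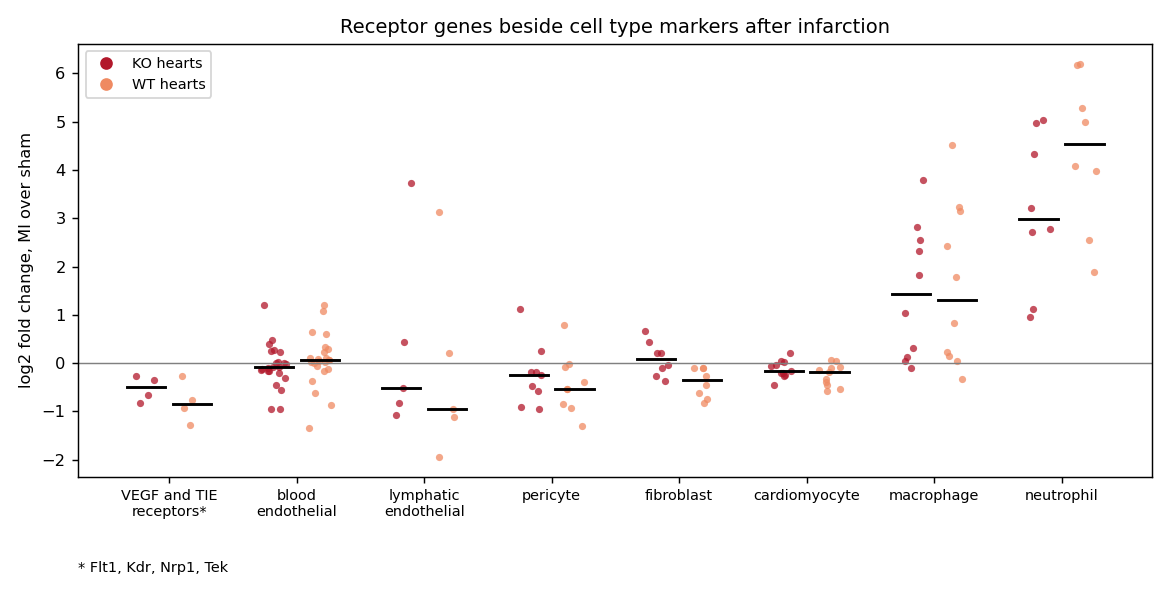
Log2 fold change after infarction (y axis) for Flt1, Kdr, Nrp1 and Tek and for the genes of 7 cell type marker lists, with KO hearts left of WT hearts. Each point is a gene and each bar a median; the blood endothelial medians lie at -0.08 in KO and 0.06 in WT, and the neutrophil medians at 2.99 in KO and 4.54 in WT.

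Other genes of the pathway numbered 68, of which 23 rose and 13 fell in KO after infarction and 25 rose and 14 fell in WT. The falls in KO numbered 7 without KO MI replicate 1 and 6 without KO MI replicate 2. Among 3 further ligands, Angptl4, a lipoprotein lipase inhibitor related to the angiopoietins, rose 4.69-fold in KO and 10.7-fold in WT. Its KO sham arrays read 5.95 and 7.59, against 8.99 and 9.0 in KO MI, so that the KO rise was 2.65-fold without KO sham replicate 1 and 8.28-fold without KO sham replicate 2. Vegfd, a lymphatic ligand, fell in WT (log2 fold change -0.65, adjusted p = 0.0146) and had -0.33 in KO (adjusted p = 0.196). The WT call was lost without WT sham replicate 1 (adjusted p = 0.136) or either WT MI array (0.0654 and 0.0511), over a range of 0.00464 to 0.136.

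Of 9 further receptors and partners, 2 rose and 3 fell in each genotype. The fibronectin receptor subunit Itga5 rose 3.61-fold in KO and 4.24-fold in WT, and Itgb3 rose 2.30-fold in KO and 2.31-fold in WT. Ptprb, the phosphatase that restrains Tek, fell 1.90-fold in KO and 1.78-fold in WT. Gpc1, a heparan sulfate proteoglycan, fell 1.85-fold in WT (adjusted p = 0.00405) and was 1.43-fold lower after infarction in KO (log2 fold change -0.52, adjusted p = 0.0623, 0.00679 without KO sham replicate 1, range 0.00679 to 0.27). Nrp2 fell in both genotypes and Tie1, the partner of Tek, fell in KO (log2 fold change -0.41, adjusted p = 0.0326) and read -0.21 in WT (adjusted p = 0.202); both were named after their values were seen. The calls of Nrp2 were lost under 10 of 20 alternatives in KO (adjusted p up to 0.328, without KO MI replicate 2) and 6 in WT (up to 0.208, without WT MI replicate 2). That of Tie1 was lost under 10 in KO (up to 0.137, without either KO MI array).

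Downstream, 4 of 15 signalling genes rose and 3 fell in KO, and 6 rose and 2 fell in WT. Plcg1, the phospholipase that Kdr activates, fell by 0.84 in KO and by 0.94 in WT, and Prkca, a kinase below it, fell by 0.56 in KO and by 1.06 in WT. The KO call of Prkca was lost under 7 of 20 alternatives, with an adjusted p of up to 0.143, without KO MI replicate 2. Hspb1, the small heat shock protein phosphorylated after Kdr signalling, rose by 2.94 in KO and 2.54 in WT, and the adaptor gene Shb by 1.12 in KO and 0.97 in WT. Of 18 target genes 6 rose and 3 fell in KO, and 8 rose and 3 fell in WT. Whether the changes of signalling and target genes came from the receptors or from a changed mix of cells was not tested. Plaur, the urokinase receptor, had log2 fold changes of 2.84 in KO and 4.01 in WT, Mmp14 of 1.33 in KO and 1.42 in WT, and Cxcr4 of 0.72 in KO and 1.24 in WT, while the Notch target Hey1 fell by 0.82 in KO and by 1.13 in WT.

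Of 12 regulators of Vegfa 3 rose and 4 fell in KO, and 2 rose and 4 fell in WT. Ppargc1a, a coactivator that induces Vegfa in muscle, fell by 0.82 in KO and by 1.32 in WT. Zfp36, which destabilises Vegfa mRNA, rose by 0.81 in KO and 1.53 in WT. Hif1a, a HIF subunit gene named after its values were seen, rose by 0.53 in KO (adjusted p = 0.0158) and by 0.79 in WT (adjusted p = 0.00132). It was not run under the alternatives. Epas1, another HIF subunit gene, fell by 0.81 in both genotypes. Egln1, a prolyl hydroxylase that marks HIF for degradation, fell by 0.59 in KO and by 0.79 in WT. In KO, Zfp36 lost its call without KO sham replicate 2 (adjusted p = 0.0834) or KO MI replicate 2 (adjusted p = 0.132, range 0.00751 to 0.132), and Egln1 without either KO MI array (adjusted p of 0.0535 and 0.0565, range 0.00114 to 0.0565).

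The list of VEGF binding and releasing genes, which also holds ligands of neuropilins and matrix proteins, had the largest median shift of the pathway lists. Of its 11 genes 7 rose and 0 fell in KO (median log2 fold change 1.16), and 6 rose and 1 fell in WT (median 1.59). Mmp9, a protease that frees VEGF from matrix, rose 9.11-fold in KO and 16.7-fold in WT. Thbs1, an inhibitor of angiogenesis that binds VEGF, rose 8.14-fold in KO and 8.89-fold in WT. Sema3f, a ligand of neuropilins, rose 2.24-fold in KO and 3.02-fold in WT, and Ccn1, a matrix protein, rose 2.68-fold in KO and 3.05-fold in WT. Between genotypes in infarcted hearts 0 of the 68 genes passed by limma, with 13 at an unadjusted p under 0.05, as had 11.7% of all genes.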

How the data were processed

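Total RNA from mouse hearts was biotin-labelled and hybridised, per the labels. The authors ran Affymetrix Expression Console and RMA and deposited log2 expression levels, per the submitters' processing notes, which give no versions. Of 35556 probes, 21789 had 1 gene in the platform annotation. A gene was represented by its probe of highest mean over the 8 arrays, which gave 19938 genes with no filter on low values. The 10 members had 1 probe each. The number of arrays limits the precision.

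All 8 arrays entered 1 fit of 4 group means in limma 3.58.1 (R 4.3.3), with two-sided moderated tests and Benjamini-Hochberg adjustment over all genes, at an adjusted p under 0.05. The smallest p of an exact permutation test of 2 arrays against 2 is 0.333, and model p-values are given instead. The averaged genotype effect and the difference of the infarction responses were contrasts of the same means. The code was tested on simulated data.

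The members, gene lists and naming rule were chosen with earlier results of these data known. All 10 members were named, with up to 4 genes per pathway list and 3 per marker list by smallest p after infarction in WT, and other names are said to have been chosen after their values were seen. Some listed symbols had no measured gene and were left out. The 20 alternatives were an intensity trend, a robust prior, removal of genes of low mean, averaged probes per gene, every probe tested, median centring, cyclic loess, the 2 groups alone, array weights, a replicate block, a 2-fold minimum, each of the 8 arrays left out, and 2 arrays left out together. The last, without WT MI replicate 2 and KO sham replicate 1, was added after seeing the data. So was running the alternatives on the named pathway and marker genes other than Hif1a and on their list counts after infarction. Promoter sequences are those of RefSeq (GRCm38.p6). Python 3.11.15 with matplotlib 3.10.9 drew the figures.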

Additional observations from a re-analysis of the deposited data

How the results depend on the processing

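The members and the counts of members and genes called were recomputed in each comparison under 20 alternatives (19 for the averaged genotype effect and the difference of responses, for which the 2 groups alone cannot be fitted). No called member changed direction under any of them. Named pathway and marker genes other than Hif1a, and their list counts, were recomputed after infarction alone, and no called one changed direction. The genotype comparisons of these genes, the list medians and the Angpt2 over Angpt1 difference were not recomputed. Leaving aside a 2-fold minimum, between 20 and 26 of the 68 pathway genes rose and between 6 and 14 fell in KO, and between 19 and 26 rose and between 10 and 16 fell in WT. With it 15 rose and 0 fell in KO, and 16 rose and 3 fell in WT. A 2-fold minimum left 2 members and 1026 genes called after infarction in KO, and 2 members and 1670 genes in WT. Leaving out each array in turn gave between 3 and 5 members (3 without KO MI replicate 2) and between 2246 and 4099 genes in KO, and between 3457 and 6483 genes in WT, where the members called were 5 or 6. Between genotypes in infarcted hearts, Pgf was the 1 member called, and leaving out any array gave 0 members and between 2 and 11 genes. The 2 groups alone gave 0 members and 2 genes, leaving out both WT MI replicate 2 and KO sham replicate 1 gave 0 members and 3 genes, and the replicate block gave 0 members and 5 genes, with the log2 fold change of Pgf at -1.19 in the block (adjusted p = 0.0704). An intensity trend gave 63 genes, array weights 26, and a filter that dropped 33.3% of genes, those of lowest mean, 23. In sham hearts the genotypes differed in 12 genes with an intensity trend, 3 with the 2 groups alone and between 3 and 34 without 1 array. The averaged effect had 39 genes with an intensity trend, 7 with the replicate block, 8 with a 2-fold minimum, 8 without those 2 arrays and between 3 and 10 without 1 array. The difference of responses had 4 genes with an intensity trend, 1 with cyclic loess and between 0 and 3 without 1 array. The cause of these moves was not tested, except that a 2-fold minimum can only lower a count. Same-numbered arrays did not deviate together (correlations of their deviations between -0.19 and 0.16 over 6 pairs of groups), so the numbers were not taken as pairs.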

Other observations

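The genes whose levels ran most alike with a member over the 8 arrays were taken by Pearson's r, as a description. Clone, predicted and Riken names were left out first, so each ranking is among the remaining genes. The arrays fall into a sham and an infarcted cluster, so a high r can come from the step between them alone. Kdr ran most alike with Gpr155 (r = 0.997), Prex2 (r = 0.996) and Gpr89 (r = 0.996), and Tek with Itm2b (r = 0.997), Zbtb8a (r = 0.993) and Nkiras1 (r = 0.991). Angpt2 ran most alike with Fbxl15 (r = 0.989), Treml4 (r = 0.984) and Fdps (r = 0.982). Vegfa, which did not follow that step, ran most alike with Rbm41 (r = 0.933), U2af1l4 (r = 0.922) and Olfr1416 (r = 0.914). The highest r among so many genes over 8 arrays can be high without any link, for Vegfa as well.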
